A study of Mus musculus with 4 samples.

Results

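The 6 genes described here, Akr1c18, Scnn1a, Tcap, Tspan11, Ly6d and A2ml1, were chosen by their high signal in core over penumbra pieces of the mouse brain, in healthy and in ischemic tissue. They were found on the arrays through the RefSeq accession that each probe carries, and 8 of 41174 probes, or 6 of 33269 genes and unnamed features, belonged to them. Brain tissue came from male C57BL/6J mice aged 9 weeks, in which the middle cerebral artery had been blocked for 6 h. Per the labels, the block was permanent, made under sevoflurane with an intraluminal filament, and followed by saline given into the ventricle in all mice used here. The tissues were ischemic core, ischemic penumbra and the healthy counterpart of each piece, cut out with a scalpel. The labels speak of 3 mice per group with neurological grades G1 and G2. Pooling of RNA is not mentioned, nor whether the healthy pieces were from the opposite hemisphere or from separate mice. There were 4 arrays on 1 slide, and each set an ischemic piece against its healthy counterpart in 2 colors, with the dyes swapped between the 2 arrays of a region.

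Each swapped pair was counted as 1 replicate, so the comparisons carry no p-value; limma's p-values over arrays are given only in the closing section, as an alternative. Every error is the SD between 2 arrays or between 2 dyes and holds no known spread between animals. The median spot of an array gave 192 to 225.5 in Cy3, or 284 to 310 in Cy5, over local backgrounds of 64 to 71, and 76.1% to 79.4% of spots were well above background. The number of arrays limits the precision. The brain markers listed for excitatory neurons (10 of 10), astrocytes (8 of 8) and oligodendrocytes (7 of 7) were above background in all 8 signals, that is 4 tissues in 2 dyes. Immediate early genes, which neurons and glia transcribe within minutes of a stimulus, were called higher in ischemic tissue for 12 of 12 list members in the core and 10 of 12 in the penumbra.

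The occluded artery feeds the lateral cortex and the striatum, so a block cut from its territory can hold several cortical layers, white matter and deep nuclei in varying shares. The 6 genes belong to no single pathway. Akr1c18 encodes 20-alpha-hydroxysteroid dehydrogenase, which inactivates progesterone, and Scnn1a the alpha subunit of the epithelial sodium channel. The Scnn1a promoter is widely used to drive Cre in neurons of cortical layer 4, the layer that receives input from the thalamus. Tcap encodes telethonin, which caps titin at the Z-disc of striated muscle, and Tspan11 is a membrane protein of the tetraspanin family. Ly6d is a GPI-anchored surface protein known from lymphoid progenitors and squamous epithelium, and A2ml1 is a protease inhibitor related to alpha-2-macroglobulin.

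Promoters of 3 members were listed by RefSeq on build GRCm38.p6, and they are shown because the members share a pattern across tissues and their start regions can be set side by side. Each runs from 250 bases before to 50 bases after the start of the gene, on the gene's own strand. Capitals mark matches to the core of a TATA box (TATAAA), of a GC box (GGGCGG) or of a cyclic AMP response element (TGACG), searched on both strands. None of these motifs contains another.
Akr1c18: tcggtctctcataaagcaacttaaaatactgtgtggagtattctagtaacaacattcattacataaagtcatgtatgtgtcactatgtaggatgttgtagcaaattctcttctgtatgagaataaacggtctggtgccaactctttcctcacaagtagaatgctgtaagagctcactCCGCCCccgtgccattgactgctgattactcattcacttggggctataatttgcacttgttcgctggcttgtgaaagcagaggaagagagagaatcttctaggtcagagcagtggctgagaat
Tspan11: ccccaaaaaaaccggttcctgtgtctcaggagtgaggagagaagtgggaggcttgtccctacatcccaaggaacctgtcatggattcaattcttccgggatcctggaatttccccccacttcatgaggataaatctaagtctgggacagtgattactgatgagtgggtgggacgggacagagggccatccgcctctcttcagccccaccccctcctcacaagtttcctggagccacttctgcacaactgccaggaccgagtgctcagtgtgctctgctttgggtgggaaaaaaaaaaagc
A2ml1: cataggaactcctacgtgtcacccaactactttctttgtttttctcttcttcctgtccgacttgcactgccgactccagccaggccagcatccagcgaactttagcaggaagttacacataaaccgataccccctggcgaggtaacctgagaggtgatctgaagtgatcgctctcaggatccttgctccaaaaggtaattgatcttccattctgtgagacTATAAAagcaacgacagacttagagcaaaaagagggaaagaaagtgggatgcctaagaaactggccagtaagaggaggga
The Akr1c18 window lay at chr13:4150597-4150896 on the minus strand, the Tspan11 window at chr6:127887372-127887671 on the plus strand and the A2ml1 window at chr6:128581557-128581856 on the minus strand. GGGCGG matched once in the Akr1c18 window, on the opposite strand. TATAAA matched once in the A2ml1 window. Neither matched in the Tspan11 window, and TGACG matched in none of the 3. Over 32851 promoter windows of the same length, 13.6% held TATAAA, 35.7% GGGCGG and 20.8% TGACG. The GC share was 42.3% for Akr1c18, 53.3% for Tspan11 and 47.7% for A2ml1, against a median of 52.7% over all windows. These 3 windows therefore had no searched motif in common.

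Whether the genes were higher in the core piece in both healthy and ischemic tissue was read within each dye. All 6 were called higher in core in healthy tissue, where 0.313% of features were called higher, and all 6 in ischemic tissue, where 0.442% were. In both tissues 0.22% of features were called higher. None of the 6 was called lower, as 0.82% of features were in healthy and 0.913% in ischemic tissue. A call asked for at least a 2-fold mean difference and at least 1.5-fold in each dye. These counts follow from how the genes were picked and carry no test. In bulk tissue, fewer cells of a type and less RNA per cell cannot be told apart. Median differences of the set were 1.81 log2 in healthy and 1.97 log2 in ischemic tissue, against 0.01 and 0.02 for all features tested.

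Akr1c18, the progesterone-inactivating enzyme, gave raw Cy3 spot signals of 1078 in healthy core, 1167.5 in ischemic core, 299 in healthy penumbra and 241.5 in ischemic penumbra. In Cy5 the signals were 1897.5, 1504, 476.5 and 308 in the same order of tissues. Every core signal was above every penumbra signal of its dye, while the order of the 2 core tissues was reversed between the dyes. After normalization, healthy core exceeded healthy penumbra by 1.91 ± 0.04 log2 (3.76-fold), the second highest difference of 24891 features. Ischemic core exceeded ischemic penumbra by 2.06 ± 0.07 log2 (4.18-fold).

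Scnn1a, the sodium channel subunit, gave raw Cy3 signals of 1374 in healthy core, 1220.5 in ischemic core, 394 in healthy penumbra and 389 in ischemic penumbra. In Cy5 it gave 2337, 1744.5, 572 and 628. The core signals lay far above the penumbra signals, and in both dyes the healthy core was the highest tissue. The core over penumbra difference was 1.90 ± 0.04 log2 (3.73-fold) in healthy tissue and 1.32 ± 0.04 log2 (2.49-fold) in ischemic tissue. Among all features tested, these differences ranked 3rd in healthy and 28th in ischemic tissue. The values come from the brighter of its 2 probes. The other probe was well above background in 0 of 8 signals and differed by 0.13 ± 0.02 and 0.09 ± 0.00 log2. With the mean over both probes the ischemic difference was 0.70 log2 and the call ended.

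Tcap, the titin cap protein, gave raw Cy3 signals of 2034.5 in healthy core, 2907 in ischemic core, 586.5 in healthy penumbra and 457 in ischemic penumbra. In Cy5 they were 3265, 3586, 888 and 593. Ischemic core was the highest tissue and ischemic penumbra the lowest in both dyes. The core over penumbra difference was 1.83 ± 0.09 log2 (3.55-fold) in healthy tissue. In ischemic tissue it was 2.38 ± 0.02 log2 (5.19-fold), the highest of 24873 features.

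Tspan11, the tetraspanin, gave raw Cy3 signals of 352.5 in healthy core, 347 in ischemic core, 122.5 in healthy penumbra and 91 in ischemic penumbra. In Cy5 they were 546, 456, 143 and 119. Its penumbra signals were near local background, although all 8 signals were well above it. The differences were 1.80 ± 0.02 log2 (3.47-fold) in healthy and 1.87 ± 0.02 log2 (3.67-fold) in ischemic tissue. With Agilent's processed signals, which differ in background correction, dye normalization and offset together, the differences were 5.69-fold and 7.5-fold, and which of these moved them was not tested. A second, dimmer probe of Tspan11 differed the same way by 0.88 ± 0.01 and 0.94 ± 0.03 log2, short of 2-fold.

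Ly6d, the GPI-anchored surface protein, gave raw Cy3 signals of 1002.5 in healthy core, 818 in ischemic core, 360 in healthy penumbra and 158.5 in ischemic penumbra. In Cy5 they were 1662, 1039, 506.5 and 219.5. In both dyes the signals stepped down from healthy core to ischemic core, healthy penumbra and ischemic penumbra. The core over penumbra difference was 1.60 ± 0.02 log2 (3.02-fold) in healthy and 2.09 ± 0.05 log2 (4.27-fold) in ischemic tissue. Ly6d ranked 10th in the healthy and 2nd in the ischemic comparison.

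A2ml1, the protease inhibitor, gave raw Cy3 signals of 1579 in healthy core, 1366 in ischemic core, 739 in healthy penumbra and 535 in ischemic penumbra. In Cy5 they were 2774, 2153, 1121 and 909. Core again lay above penumbra in every case, by a smaller factor than for the other 5 genes. The differences were 1.18 ± 0.05 log2 (2.27-fold) in healthy and 1.01 ± 0.00 log2 (2.01-fold) in ischemic tissue, the second just past the 2-fold line. Their ranks were 40 and 106.

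**Figure D1:**
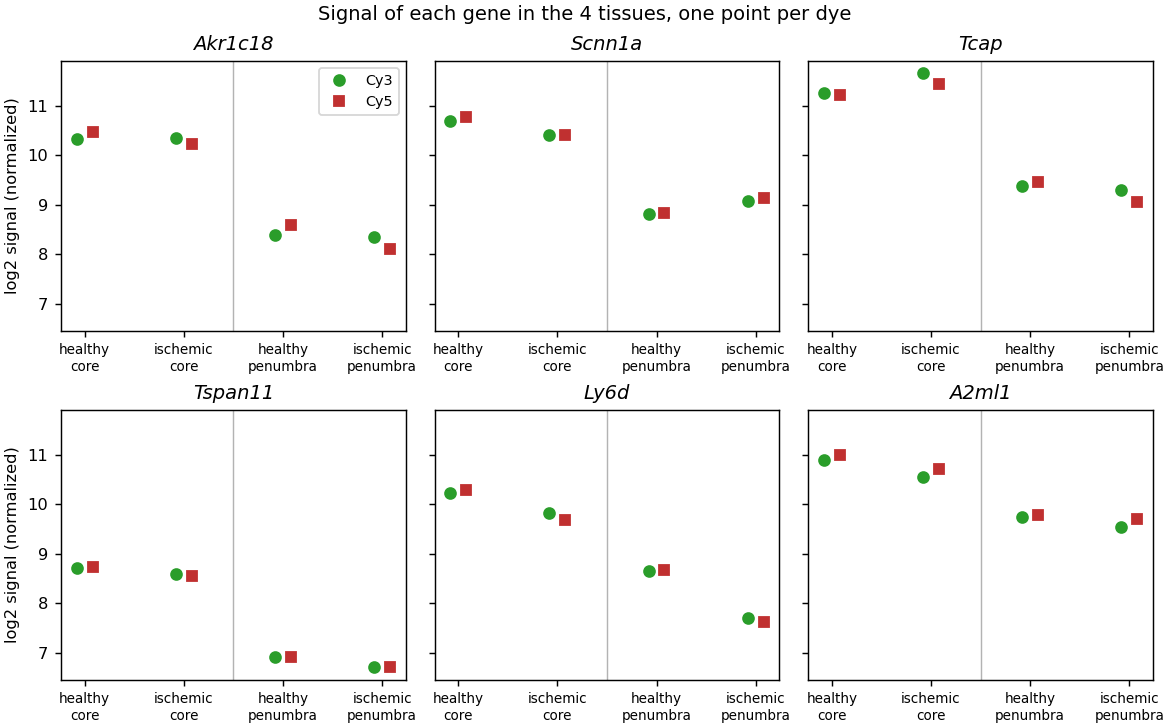
Normalized log2 signal (vertical axis) of each gene in healthy and ischemic core and penumbra (horizontal axis), with 1 point per dye; signals of different probes cannot be compared as levels. In all 6 genes the lowest core point of both dyes lies above the highest penumbra point, by 0.78 log2 for A2ml1 to 1.77 log2 for Tcap.

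After normalization, the order of the 4 tissues was the same in both dyes for 5 of 6 genes. Tspan11, Ly6d and A2ml1 ran from healthy core through ischemic core and healthy penumbra to ischemic penumbra. Scnn1a differed from them in its penumbra tissues, where the ischemic piece was above the healthy piece by 0.27 ± 0.03 log2. Its raw Cy3 signals, taken from different arrays, were 394 in healthy and 389 in ischemic penumbra, so this order in Cy3 holds only after normalization. Tcap differed in its core tissues, where the ischemic piece was above the healthy piece by 0.31 ± 0.12 log2. These 2 orders hold relative to the median of all features and turn with a scaling to spike-in transcripts, as given with the ratios of ischemic over healthy tissue. For Akr1c18 the gaps within the core (0.12 ± 0.20 log2) and within the penumbra (0.28 ± 0.32 log2) were smaller than the SD between dyes. Read within dye, which sets tissues of different arrays side by side, only its step between pieces was ordered. On each array, where both tissues were measured together, its ischemic piece was below the healthy piece. The ratios were -0.12 and -0.13 log2 in the core and -0.29 and -0.26 log2 in the penumbra. In the other 5 genes neighbouring tissues differed by more than the SD between dyes, by the least margin for the 2 penumbra tissues of Tcap (0.24 ± 0.23 log2).

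The set is not a strict top list. The order given here is over named genes only, while the ranks above also count unnamed features. By the healthy difference, Cyp39a1, an oxysterol 7-alpha-hydroxylase of bile acid synthesis, followed Tspan11 with 1.75 ± 0.09 log2. Next was Kcnab3, a potassium channel beta subunit, with 1.74 ± 0.03 log2. Both lay above Ly6d and A2ml1. After Ly6d came Rorb, a nuclear receptor of cortical layer 4, with 1.51 ± 0.22 log2. In ischemic tissue Cyp39a1 had 1.66 ± 0.06 and Kcnab3 1.63 ± 0.06 log2, above Scnn1a and A2ml1.

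**Figure D2:**
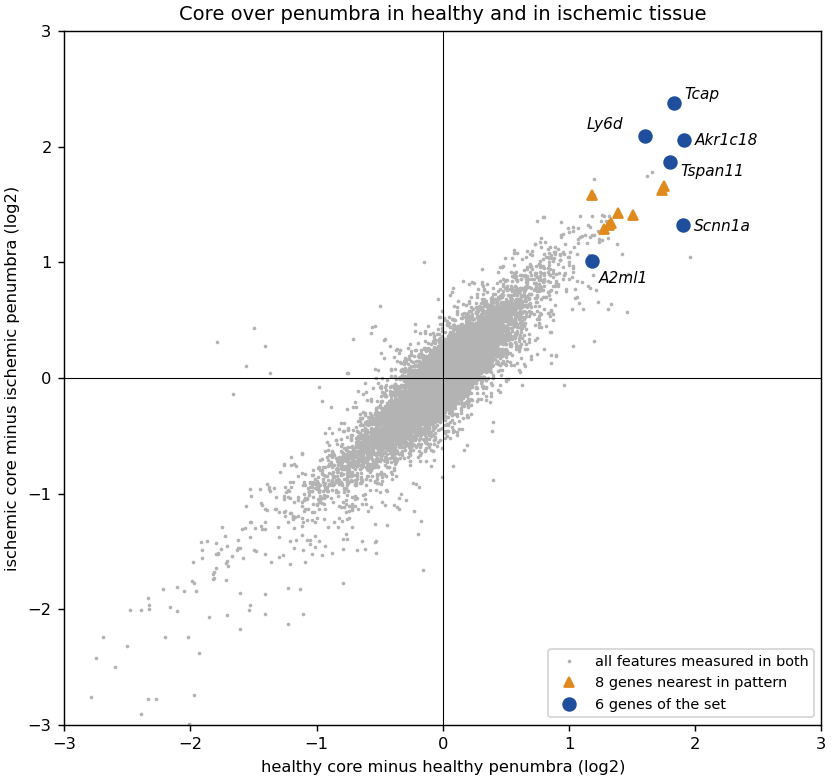
Difference between core and penumbra in healthy tissue (horizontal axis, log2) against ischemic tissue (vertical axis, log2), with 1 point per feature measured in both; 13 of 24518 features lie beyond 3 log2 and are not drawn. Tcap and Ly6d sit above the level of their healthy difference, and Scnn1a (1.90 healthy, 1.32 ischemic) sits below it; both axes come from the same 4 arrays.

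How ischemic tissue compared with its healthy counterpart was read on each array, since both tissues shared it. None of the 6 genes was called higher or lower in either region. Of all features, 0.31% were called higher and 0% lower in the core, and 0.241% higher and 0.00401% lower in the penumbra. In each region 5 of 6 genes were below 0 on both arrays, against 28% of all features (core) and 32.4% (penumbra). The remaining gene was above 0 on both arrays, as 26.9% (core) and 30.3% (penumbra) of features were. The median over the set was -0.23 log2 in each region, against -0.01 for all features. These ratios use the same signals as the core over penumbra differences by which the genes were picked, so they are not independent of that choice. They are also relative to the median of all features. A scaling to 10 spike-in transcripts moves that median by -0.46 log2 in the core and -0.47 log2 for the penumbra, and under it all 6 genes had means below 0 in both regions.

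Ly6d had the lowest ratios of the set. On the penumbra arrays its log2 ratios were -1.01 and -0.97, a mean of -0.99 ± 0.03 (0.502-fold), the second lowest of 24925 features. This was just short of the 2-fold line of the call. On the core arrays they were -0.54 and -0.45, a mean of -0.50 ± 0.06 (0.709-fold), the 39th lowest of 24533 features. The ratio in the penumbra passed the line with processed signals (-1.38 log2), with median centring (-1.02 log2), with spike-in scaling (-1.46 log2) and without penumbra replicate 4 (-1.01 log2).

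Scnn1a and Tcap had ratios on opposite sides of 0 in the 2 regions. Scnn1a gave -0.27 and -0.36 log2 on the core arrays (mean -0.31 ± 0.06) and 0.31 and 0.22 log2 on the penumbra arrays (mean 0.27 ± 0.06). With spike-in scaling its penumbra mean turned to -0.20 log2. Tcap gave 0.18 and 0.43 log2 in the core (mean 0.31 ± 0.18) and -0.32 and -0.16 log2 in the penumbra (mean -0.24 ± 0.11). With spike-in scaling its core mean turned to -0.15 log2. Among all features, 6.2% had both core arrays on one side of 0 and both penumbra arrays on the other.

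The ratios of the other 3 genes were small and below 0. Akr1c18 had -0.12 ± 0.01 log2 in the core and -0.28 ± 0.02 log2 in the penumbra. Tspan11 had -0.14 ± 0.01 and -0.22 ± 0.01 log2. A2ml1 had -0.31 ± 0.19 and -0.14 ± 0.14 log2, and its 2 core arrays, at -0.18 and -0.44 log2, stood well apart. For these 3 genes the ratio lay within 0.5 log2 of 0, as did 98.1% of all features in the core and 97.9% in the penumbra. With spike-in scaling all 3 lay beyond it, from -0.77 to -0.58 log2 in the core and from -0.74 to -0.60 log2 in the penumbra, and Tspan11 was at -0.60 log2 in the penumbra with processed signals.

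**Figure D3:**
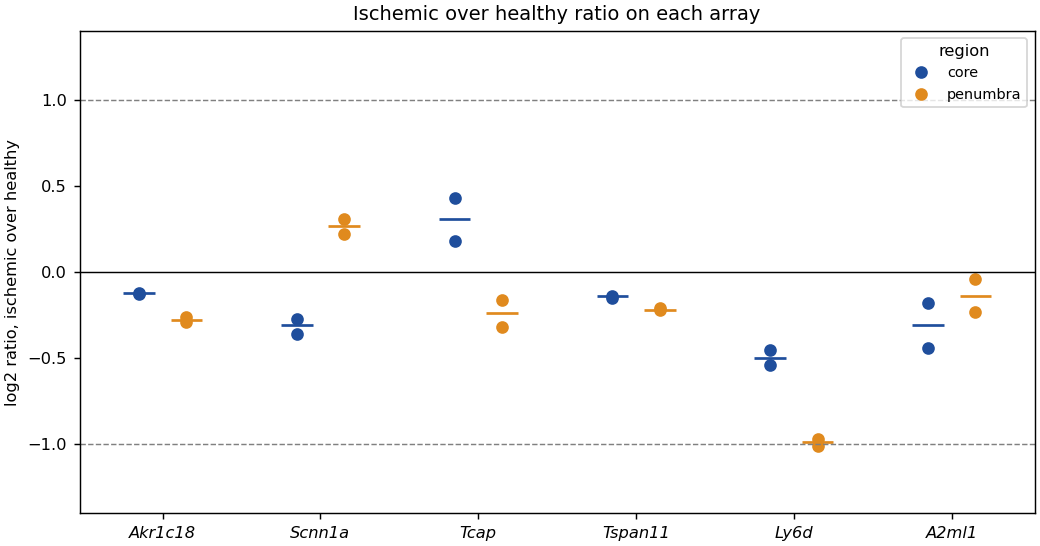
Log2 ratio of ischemic over healthy tissue (vertical axis) for each gene (horizontal axis), with 1 point per array, a bar at the mean and dashed lines at 2-fold. The penumbra points of Ly6d lie at the lower dashed line; Scnn1a and Tcap straddle 0 between regions, a split of sides that ends with spike-in scaling (-0.20 log2 for Scnn1a in the penumbra, -0.15 log2 for Tcap in the core).

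Whether the response to ischemia differed between the regions was read from the difference of these ratios, which equals the ischemic minus the healthy difference between pieces. None of the 6 genes passed the rule for it, which asked for at least 1 log2 with the arrays of the regions not overlapping and which 0.0594% of features passed (0.0396% higher and 0.0198% lower in the core). The arrays of the regions did not overlap for 5 of 6 genes, all but A2ml1, and for 30.4% of all features. The difference was -0.58 log2 for Scnn1a, the 73rd lowest of 25246 features, 0.55 log2 for Tcap and 0.50 log2 for Ly6d. It was 0.15 log2 for Akr1c18, 0.08 log2 for Tspan11 and -0.17 log2 for A2ml1. For Scnn1a, Tcap and Ly6d spike-in scaling left these differences at -0.57, 0.56 and 0.51 log2.

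Markers of the cell types a block of this territory could hold were counted in the same comparisons. The lists were chosen with earlier results of these data known. Markers of cortical layer 4 came closest to the set, with median differences of 1.14 log2 in healthy and 1.10 log2 in ischemic tissue. In healthy tissue 5 of 6 were called higher in core, and in ischemic tissue 3 of 6, against 0.313% and 0.442% of all features. The remaining marker of the list, Hsd11b1, was called in neither tissue under any setting tried. Rorb had 1.51 ± 0.22 and 1.41 ± 0.07 log2. Cux2, a homeobox factor of layers from the surface down to layer 4, had 1.31 ± 0.01 and 1.21 ± 0.02 log2. Rspo1, a secreted Wnt enhancer, had 1.26 ± 0.11 and 1.41 ± 0.05 log2. The calls of Whrn, a scaffold protein (1.03 ± 0.08 log2), and of the potassium channel Kcnh5 (1.00 ± 0.04 log2) in healthy tissue were marginal. Without core replicate 1 or penumbra replicate 3 both were at 0.97 log2 and 3 of 6 markers remained called. With median centring 3 of 6 remained called too. In ischemic tissue 3 to 5 of 6 were called over all settings tried. The summed signal of the layer 4 list was 39435 to 40382 in healthy core and 18570 to 19843 in healthy penumbra, the range being over the dyes. All 6 of these markers were above background in every signal. The part of this marker list in the members' differences was not tested.

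Other cortical lists moved less. Markers of upper layers had medians of 0.43 and 0.39 log2 with 1 of 11 called higher, Cux2, in each tissue. Markers of excitatory cortical neurons had 0.34 and 0.50 log2 with 0 of 10 called, among them Camk2a at 0.26 ± 0.03 and Cck at 0.14 ± 0.34 log2 in healthy tissue. Markers of deep layers had -0.25 and -0.31 log2, with 0 of 14 called higher, 1 called lower in healthy and 2 called lower in ischemic tissue. The healthy call was the factor Bcl11b at -1.04 ± 0.01 log2, a call that ended with spike-in scaling (-0.88 log2). In the upper layer, excitatory and deep layer lists the only call higher in core was Cux2, which is also on the layer 4 list. Of all features, 0.313% (healthy) and 0.442% (ischemic) were called higher, so a count of 0 in such small lists is near that background. Of the 10 excitatory markers, 7 in healthy and 9 in ischemic tissue were above 0 in both dyes, and 0 were below 0 in both.

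The penumbra piece held far more signal of striatal and choroid plexus markers. Striatal markers had medians of -1.91 and -1.54 log2, and 11 of 12 were called lower in healthy core. Drd2, the dopamine D2 receptor, had -2.33 ± 0.00 log2. Choroid plexus markers had medians of -3.13 and -3.86 log2, with 9 of 10 called lower. Oligodendrocyte markers had medians of -0.77 and -0.76 log2. Meningeal fibroblast markers had 0.76 and 0.20 log2, and 2 of 12 were called higher in healthy core, the retinoic acid enzyme Aldh1a2 at 1.31 ± 0.00 and the transporter Slc22a6 at 1.17 ± 0.15 log2. In ischemic core 0 of the 12 were called higher and 1 lower, the zinc finger factor Zic1 at -1.12 ± 0.10 log2, a call that ended with spike-in scaling (-0.95 log2). Of 6 claustrum markers 1 was called higher, the nuclear receptor Nr4a2 at 1.17 ± 0.12 and 1.04 ± 0.16 log2; without core replicate 2 or penumbra replicate 4 its ischemic call ended at 0.93 log2. The pieces labelled core and penumbra thus differed in marker content in healthy tissue as well, and the part of this in the members' differences was not tested.

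Tcap is best known from muscle and Ly6d from squamous epithelium, so markers of both were counted. Of 15 measured skeletal muscle markers 0 were called in either tissue, with medians of 0.16 and 0.22 log2. In both dyes 11 of the 15 were above 0 and 3 below 0 in healthy tissue, and 9 and 5 in ischemic tissue. Among them Acta1, skeletal alpha-actin, had 0.39 ± 0.06 and 0.50 ± 0.04 log2. Myh2, a fast myosin heavy chain, had 0.86 ± 0.06 and 0.76 ± 0.26 log2. Ckm, the muscle creatine kinase, was above background in 0 of 8 signals. The other 15 of 16 muscle markers on the array were above it in all 8. The summed signal of the muscle list was 5163 to 5508 in healthy core, 5472 to 5507 in ischemic core, 4144 to 4223 in healthy penumbra and 4169 to 4188 in ischemic penumbra. Of the keratinocyte markers 0 of 10 were called higher and 1 lower, with medians of -0.04 and -0.01 log2. The one called lower was Krt10, a keratin of differentiated epidermis, at -1.23 ± 0.14 and -1.03 ± 0.10 log2; the ischemic call ended at -0.96 log2 without core replicate 2 or penumbra replicate 4. Of 12 keratinocyte markers on the array, 8 were above background in all 8 signals. The adhesion proteins Dsg3 and Dsc3, the only 2 of the 12 to be so, were above it in 0 of 8. Lists for astrocytes, microglia and endothelial cells had 0 calls. Of all features, 0.313% (healthy) and 0.442% (ischemic) were called higher, and 0.82% and 0.913% lower. A count of 0 in such small lists is near that background, and the part of these tissues in the members' differences was not tested.

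**Figure D4:**
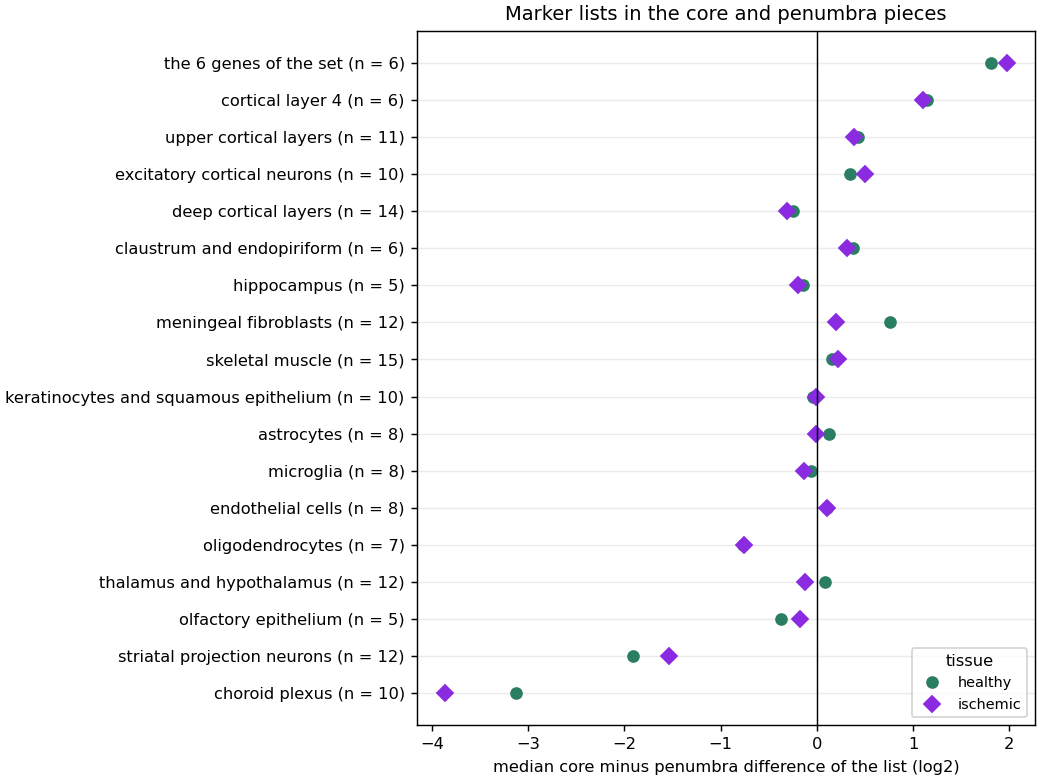
Median difference between core and penumbra (horizontal axis, log2) of the 6 genes and of each marker list (vertical axis, n measured in healthy tissue), in healthy and in ischemic tissue. The set (1.81 and 1.97) was chosen for a high value, and the marker lists with earlier results of these data known. Cortical layer 4 markers lie at 1.14 and 1.10, and striatal and choroid plexus markers lie far below 0.

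Of the measured relatives and partners of the members, 0 were called higher in core in either tissue, where 0.313% (healthy) and 0.442% (ischemic) of all features were; a count of 0 in such small groups is near that background. Of 6 other aldo-keto reductases of the 1C family on the array, 2 were measured and 0 called, Akr1c12 at -0.18 ± 0.06 and Akr1c14 at -0.01 ± 0.07 log2 in healthy tissue. Akr1c14 encodes 3-alpha-hydroxysteroid dehydrogenase of neurosteroid synthesis. Of 14 measured genes of progesterone and neurosteroid metabolism 0 were called, with a healthy median of 0.05 log2.

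Of 12 measured genes for the epithelial sodium channel and its regulators, 0 were called higher and 1 lower, Asic4, a related acid-sensing channel subunit, at -1.39 ± 0.00 log2 in healthy tissue. Scnn1b, the beta subunit, was above background in 0 of 8 signals. Scnn1g, the gamma subunit, had -0.08 ± 0.03 and 0.20 ± 0.02 log2. These are the subunits that the alpha subunit pairs with in epithelia, and neither had a called difference.

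Of 10 measured Z-disc genes and titin partners, 0 were called higher. Ttn, which encodes the titin that telethonin caps, had 0.15 ± 0.20 and 0.22 ± 0.24 log2. Actn2, the alpha-actinin of the Z-disc, was called lower in core at -1.78 ± 0.09 and -1.51 ± 0.05 log2, a direction opposite to Tcap. Trim54, a ring finger protein that binds titin and microtubules, was called lower in ischemic tissue at -1.51 ± 0.20 log2.

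Of 25 other tetraspanins 0 were called, with medians of -0.04 and -0.10 log2, and in healthy tissue the neuronal Tspan7 had 0.06 ± 0.13 and Cd81 -0.18 ± 0.09 log2. Of 21 other proteins with a Ly6 and uPAR domain 0 were called higher, with medians of 0.08 and 0.07 log2. Lypd1, which modulates nicotinic receptors, was called lower in ischemic tissue at -1.12 ± 0.15 log2, a call that ended with spike-in scaling (-0.94 log2). In the ischemic over healthy ratio of the penumbra, where Ly6d stood at -0.99 log2, these 21 ran from -0.46 ± 0.48 (Ly6e) to 0.43 ± 0.11 log2 (Lypd1), with a median of -0.05. Of 7 measured proteins of the alpha-2-macroglobulin and thioester group 0 were called, and A2m itself had -0.07 ± 0.11 and -0.25 ± 0.01 log2.

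Among 13473 other named genes above background in core tissue, those with the profile closest to the median of the set were sought over 8 values, 4 tissues in 2 dyes, each centred within its dye. The distance is the root mean square over these values. Cyp39a1 was closest at 0.09 log2 (Pearson's r 0.999), followed by Kcnab3 at 0.11 log2 (r 0.997). Then came Rorb, the calcium-binding copine Cpne9, Kazald1, Lurap1l, the phospholipase Pla2g4e and the acyl-CoA thioesterase Acot5, at 0.24 to 0.28 log2. The 8 values share arrays, so r is a description without a p-value. Because these 8 genes were picked by likeness over the same signals, their core over penumbra differences (1.18 to 1.75 log2 in healthy tissue) follow from that choice. The same holds for their ischemic over healthy ratios, from -0.55 to -0.04 log2 in the core and from -0.59 to -0.09 log2 in the penumbra.

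Each member also had a nearest gene of its own. Cyp39a1 was nearest to Akr1c18, Tcap and Tspan11, at 0.17, 0.28 and 0.09 log2, and Kcnab3 nearest to Scnn1a at 0.14 log2. Tmem215, a transmembrane protein, was nearest to A2ml1 at 0.07 log2. Pla2g4e was nearest to Ly6d at 0.26 log2, with ischemic over healthy ratios of -0.55 ± 0.02 in the core and -0.59 ± 0.03 log2 in the penumbra. Within the set, Ly6d and Scnn1a stood at 0.47 log2 from each other, and Tspan11 lay closest to the median profile at 0.06 log2.

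The chromosomal positions of the members are known by RefSeq order. Scnn1a, Tspan11 and A2ml1 lie on chromosome 6 in that order, with 21 protein-coding genes between the first pair and 10 between the second. Of these 31 genes 22 were measured, 0 were called higher in core, near the background of 0.313% and 0.442% of all features, and their median was 0.04 log2 in both tissues. The chloride channel Ano2 (-1.53 log2 in healthy tissue) and the potassium channel Kcna5 (-1.30 log2) were called lower. Tcap lies on chromosome 11, Akr1c18 on chromosome 13 and Ly6d on chromosome 15.

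The members' differences were also read under other settings. In healthy tissue all 6 remained called with processed signals, median centring, spike-in scaling and the mean over probes. Processed signals gave larger folds, from 2.59-fold for A2ml1 to 5.69-fold for Tspan11.

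**Figure D5:**
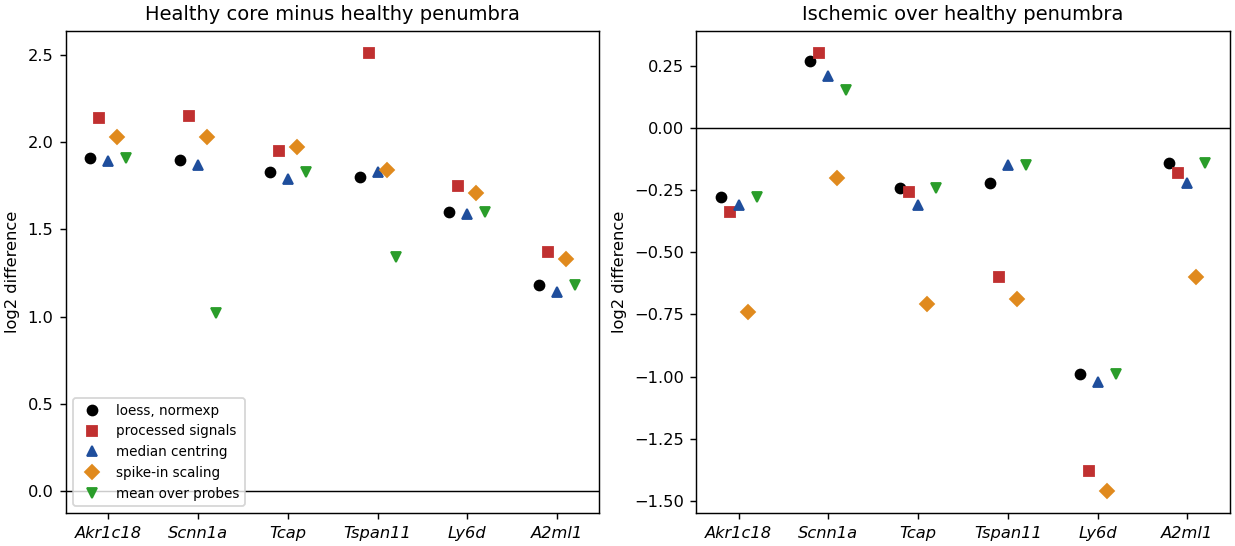
Log2 difference (vertical axes) of each gene (horizontal axes) under 5 settings, healthy core minus healthy penumbra at left and ischemic over healthy penumbra at right. At left every point lies above 1, the probe mean of Scnn1a lowest at 1.02; at right the spike-in points lie lowest, which puts Scnn1a at -0.20 where the other settings put it above 0.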

How the data were processed

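Spot intensity in Cy3 and Cy5 was deposited by the authors as scanner files of Agilent Feature Extraction (11.0.1.1 in the submitters' processing notes). They also deposited a series table of log10 ratios. It matched processed Cy5 over Cy3 signal on the log10 scale within 5e-06, so scale and direction were known, and its column medians were -0.0215, 0.00516, -0.0199 and -0.0115.

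Median signals were corrected with normexp (offset 50) and loess in limma 3.58.1 (R 4.3.3), and single-channel values were scaled with Aquantile. Control and outlier-marked spots were left out, 0 spots were saturated, and ratios were turned to ischemic over healthy. A probe was tested where 1 or both of the tissues compared gave signals well above background on both of their arrays. The brightest probe stood for a gene. Accessions without versions named 23374 of 41174 probes through RefSeq (GRCm38.p6). Calls asked for 2-fold in the mean and 1.5-fold in each value, because a swapped pair is 1 replicate. With 1 slide, no slide batch could be tested. Settings tried were processed signals, median centring, spike-in scaling, no dim filter, the mean over probes, leaving out each array, and limma over arrays.

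The members and the 25 gene lists (298 entries, 283 on the array) were chosen with earlier results of these data known. The naming rule took all members, up to 4 called genes of a list or else its 2 brightest, the 8 genes nearest in pattern and each member's nearest gene; some list genes it took are left unnamed. Other genes (Kcnh5, Scnn1b, Scnn1g, Ttn, A2m, Ckm, Dsg3, Dsc3, Lypd1, Rorb's neighbours in the order of differences and both chromosome 6 channels) were named after their values were seen. Hsd11b1 was also named after its values were seen. Python 3.11.15 was used with numpy 2.4.6, pandas 2.3.3 and matplotlib 3.10.9. The script fitting limma was tested on simulated data.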

Additional observations from a re-analysis of the deposited data

Results flagged for a closer look

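Scnn1a and Tcap were set apart because both core arrays lay on one side of 0 and both penumbra arrays on the other in the ischemic over healthy ratio. The core minus penumbra difference of that ratio was -0.58 log2 for Scnn1a and 0.55 log2 for Tcap. With 1 replicate per region the difference was not tested across animals. Limma over the arrays, whose error is the array spread alone, gave adjusted p-values of 0.48 for Scnn1a and 0.67 for Tcap. The opposite sides end with spike-in scaling, which puts Scnn1a in the penumbra at -0.20 log2 and Tcap in the core at -0.15 log2, while the differences remain at -0.57 and 0.56 log2. Among all features, 6.2% showed such opposite sides.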

How the results depend on the processing

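Agilent's processed signals called 288 features higher and 576 lower between healthy pieces, 388 and 653 between ischemic pieces, 229 and 15 in ischemic over healthy core, 189 and 30 in the penumbra, and 93 and 86 for the difference between regions, against 78 and 204, 110 and 227, 76 and 0, 60 and 1, and 10 and 5. Spike-in scaling called 125 and 190 higher between healthy and ischemic pieces, 32 higher and 26 lower in ischemic over healthy core, and 29 and 42 in the penumbra. Median centring called 2 lower in the penumbra. With each of these 3 settings 1 of the 6 members, Ly6d, was called lower in ischemic penumbra, against 0. Limma over arrays called 2 features for the difference between regions, 2 higher and 0 lower, with 1111 at an unadjusted p under 0.05. Without 1 array, counts of features called ran from 293 to 374 lower between healthy pieces and from 315 to 408 between ischemic pieces. In ischemic over healthy core they ran from 0 to 12 lower (12 without core replicate 1), in the penumbra from 1 to 11 lower (11 without penumbra replicate 3) with 0 to 1 members, and for the difference from 12 to 17 higher and from 8 to 23 lower. Limma over arrays gave Ly6d an adjusted p of 0.0089 in the core and 3.1e-05 in the penumbra. Its p-values measure only the spread between arrays, and Ly6d was picked with the ischemic penumbra signal in view. The other 5 members had adjusted p-values of 0.13 to 0.74 in the core and 0.14 to 0.52 in the penumbra. Of 246 alternatives for single members, 217 were counted as the same, 1 lost a call, 4 gained one, 24 moved and 0 reversed a called value. The same meant an unchanged call, whatever its size, or an uncalled value that stayed uncalled and within its SD. It thus holds Scnn1a between healthy pieces at 1.02 log2 with the mean over probes, against 1.90. It also holds Tspan11 between ischemic pieces at 2.91 log2 with processed signals, against 1.87. For the difference between regions the SD was taken over all 4 arrays, so it includes the gap between the regions. Scnn1a at -0.31 log2 with the mean over probes, against -0.58, thus counted as the same. The cause of these moves was not tested. Part of the 217 was fixed in advance. The dim filter could not change members above background in all 8 signals, nor the mean over probes a gene with 1 probe. Leaving out 1 of 2 arrays always moves an ischemic over healthy ratio by less than its SD. The 85 other named genes had 3485 alternatives, of which 26 lost and 39 gained a call and 0 reversed a called value. Signal over background limits Tspan11 most. Core and penumbra arrays could not be paired by replicate because they share no replicate number. Pieces were compared within each dye instead, so leaving out core replicate 1 or penumbra replicate 3 left the same single dye, and the tissues of a region were compared on the same array.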
